A study of Mus musculus with 4 samples.

Results

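The TSC22 domain family of the mouse, 4 genes named Tsc22d1, Tsc22d2, Tsc22d3 and Tsc22d4, was followed in adrenal glands after a glucocorticoid. The 4 genes were taken by symbol from a read count table of 54532 genes, and all 4 were among the 16027 genes with enough counts to be tested. Adult C57BL/6 males received 10 µg dexamethasone, a synthetic glucocorticoid, or sterile phosphate-buffered saline (PBS), the vehicle, into the peritoneum, and the right adrenal of each was taken 1 h later. Each group had 5 mice, whose glands were pooled as 2 mice and 3 mice into 2 libraries (n = 2 per group), and the labels do not say which replicate number holds which pool. The animals carried no genetic change that the labels name. The errors and p-values below therefore measure the spread between pools of glands, not between mice. In the tests of single genes that spread is estimated in part from the other genes tested.

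Proteins of this family share a short conserved region, the TSC box, followed by a leucine zipper through which they form dimers with themselves and with each other. They lack the basic DNA-binding region of classical leucine zipper factors and act largely through the proteins they bind. Tsc22d3 encodes GILZ, the glucocorticoid-induced leucine zipper, which was identified as a dexamethasone-induced transcript in mouse thymocytes and binds NF-κB and AP-1. Tsc22d1 was named as a transcript stimulated by TGF-beta, Tsc22d4 is known as a regulator of lipid metabolism in mouse liver, and long forms of the family bind NRBP1 and take part in WNK kinase signalling.

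Of the family, Tsc22d3 rose after dexamethasone, by 2.65-fold. Tsc22d1, Tsc22d2 and Tsc22d4 did not pass the test. A gene is called higher or lower here where edgeR's quasi-likelihood test gives a Benjamini-Hochberg adjusted p under 0.05 over all genes tested. By that rule 1 of 4 family genes was called higher, against 3.26% of all genes tested, and 0 of 4 lower, against 1.37%. None of the 4 was lower at an unadjusted p under 0.05, by DESeq2 or by limma-voom either. Both dexamethasone libraries lay above both PBS libraries in 3 of the 4 genes, a pattern found in 30.8% of all genes tested. No family gene had both dexamethasone libraries below both PBS libraries, which 29.7% of all genes did.

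**Figure D1:**
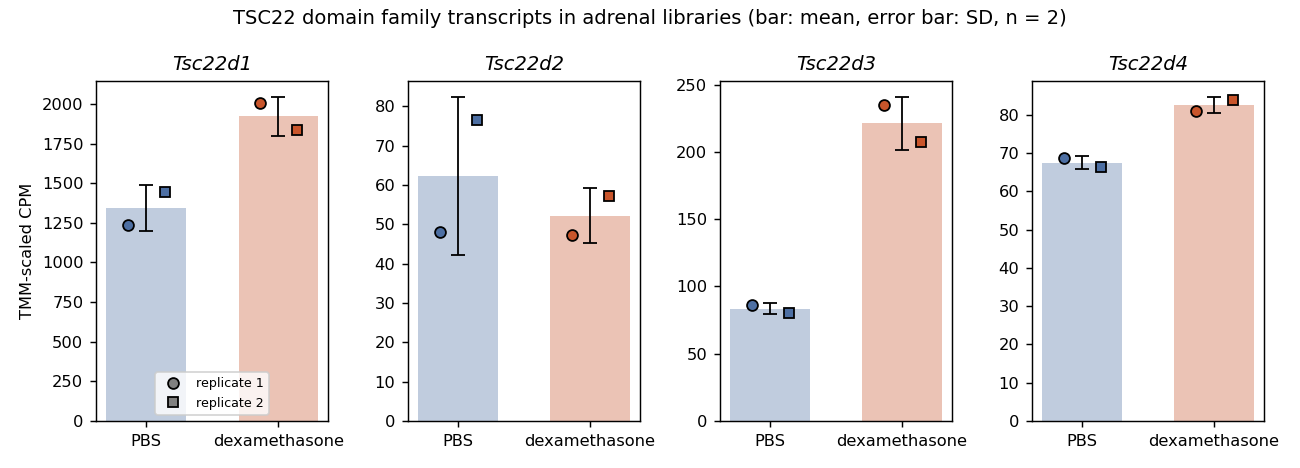
Library-scaled counts (CPM, scaled with TMM library factors) of the 4 family genes in PBS and dexamethasone libraries. Bars are means, error bars are SDs and points are single libraries (n = 2 per group). The Tsc22d3 points of dexamethasone sit at 207 and 235 CPM, above 80.5 and 86.5 CPM in PBS, while the Tsc22d2 points of the groups overlap.

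Tsc22d3 (ENSMUSG00000031431) lies on the minus strand of chromosome X at 140539528 to 140600659 of GRCm38. GENCODE release M21 lists 6 transcripts of it, 3 of them protein-coding, whose starts are spread over 57991 bp for all transcripts together. Tsc22d1 (ENSMUSG00000022010) lies on the plus strand of chromosome 14 at 76414961 to 76507765 and has 16 transcripts, 10 of them protein-coding, with starts spread over 90137 bp. The deposited values are per gene, so short and long forms of these proteins cannot be told apart in them. RefSeq windows of 300 bases, 250 before a start site and 50 from it on, were at hand for 3 starts of Tsc22d3 and 5 of Tsc22d1 on GRCm38.p6. Of these 4 are shown: the most upstream and the most downstream start of Tsc22d3, the gene that was called, and the most downstream pair of Tsc22d1, the most abundant member. Letters run from 5′ to 3′ on the strand of the gene. Capitals mark a match to TGTTCT, the hexamer of the glucocorticoid response element, read as AGAACA on the other strand, or to TGACG, the core of the cAMP response element.
Tsc22d3, chrX:140600473-140600772, minus strand: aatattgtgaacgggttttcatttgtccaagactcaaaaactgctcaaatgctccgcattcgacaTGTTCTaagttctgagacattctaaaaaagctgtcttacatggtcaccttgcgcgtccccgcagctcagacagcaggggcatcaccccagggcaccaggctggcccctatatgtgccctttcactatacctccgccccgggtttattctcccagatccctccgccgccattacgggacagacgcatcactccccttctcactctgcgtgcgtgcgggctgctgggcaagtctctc
Tsc22d3, chrX:140542619-140542918, minus strand: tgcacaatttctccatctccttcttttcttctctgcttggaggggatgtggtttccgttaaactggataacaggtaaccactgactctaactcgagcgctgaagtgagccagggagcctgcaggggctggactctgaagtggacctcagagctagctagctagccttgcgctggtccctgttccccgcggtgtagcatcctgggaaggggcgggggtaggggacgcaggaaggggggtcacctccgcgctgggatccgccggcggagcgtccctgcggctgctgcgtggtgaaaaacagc
Tsc22d1, chr14:76503976-76504275, plus strand: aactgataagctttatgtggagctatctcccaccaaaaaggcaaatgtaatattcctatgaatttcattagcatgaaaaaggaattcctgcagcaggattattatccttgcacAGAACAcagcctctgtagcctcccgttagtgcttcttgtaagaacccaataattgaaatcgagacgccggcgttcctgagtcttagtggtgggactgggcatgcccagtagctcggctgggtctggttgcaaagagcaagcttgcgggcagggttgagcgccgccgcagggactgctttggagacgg
Tsc22d1, chr14:76504260-76504559, plus strand: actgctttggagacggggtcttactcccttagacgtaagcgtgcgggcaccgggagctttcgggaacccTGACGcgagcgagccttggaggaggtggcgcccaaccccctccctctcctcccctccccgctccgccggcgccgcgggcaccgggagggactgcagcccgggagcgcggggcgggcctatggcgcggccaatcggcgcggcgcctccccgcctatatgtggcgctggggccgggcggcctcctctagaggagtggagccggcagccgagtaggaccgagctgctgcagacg

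Both strands of the 8 windows were searched for 6 motifs. The TGTTCT hexamer was found in the upstream window of Tsc22d3 with its first base at position −185 from the start site, and in the Tsc22d1 window at 76503976 at position −137 as AGAACA. It is present in 6233 of the 32851 RefSeq promoter windows of the mouse. TGACG was found in the Tsc22d1 window at 76504260 at position −181 and in the middle Tsc22d3 window, which starts at 140548522, at position −224, and it is present in 20.8% of all windows. TATAAA was found in the Tsc22d1 window at 76415571 at position −19, against 13.6% of all windows. ACANNNTGT, the centre of the full glucocorticoid response element, which overlaps TGTTCT where both occur in such an element, was in none of the 8 windows and in 6.85% of all windows. The FOXO site GTAAACA (3.65% of all windows) and the full cAMP response element TGACGTCA (1.79%), which contains TGACG, were also in none of the 8. The windows cover 300 bases around a start, and the letters outside them were not searched. For the downstream and middle windows of Tsc22d3 the nearest GENCODE start is that of a processed transcript, not of a protein-coding one. The protein-coding start of Tsc22d3 at 140600659 lies in the upstream window. Those at 140543187 and 140548338 lie outside every window, so the search does not cover all coding starts of this gene.

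Tsc22d3 was at 235 CPM in dexamethasone replicate 1 and 207 CPM in replicate 2, against 86.5 and 80.5 CPM in the PBS libraries 1 and 2. The groups did not overlap: the lowest dexamethasone library was 2.40-fold above the highest PBS library, while the libraries of a group differed by 1.13-fold and 1.07-fold. The means were 221 ± 19.5 CPM (SD, n = 2) after dexamethasone and 83.5 ± 4.20 CPM (SD, n = 2) after PBS. The log2 fold change of Tsc22d3 was 1.41 ± 0.15 (SE), with a 95% interval of 1.08 to 1.73 and an adjusted p of 0.00457 by edgeR. By p Tsc22d3 ranked 17 among the 16027 genes, and by fold 111 among the 523 genes called higher. The table's own annotation marks 1026 tested genes as members of a transcription factor family, Tsc22d4 not among them. Of these 44 were called higher and 21 lower, beside 3.26% and 1.37% of all genes tested. Among the 1026 Tsc22d3 ranked 4 by p. Its reads numbered 1675 to 6315 per library, for which counting alone gives a coefficient of variation of at most 2.44%.

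Levels of different genes are compared here as TMM-scaled CPM per kilobase of the listed gene length. For all 4 genes that length equals the total exon length in GENCODE M21. Every coding transcript is shorter, at most 4999 of 8994 bases for Tsc22d1 and 1974 of 4341 for Tsc22d3. Shares and orders between genes therefore depend on which transcripts are present, which counts per gene do not show. Per length Tsc22d3 moved from percentile 82.5 of all genes tested in PBS to percentile 94.97 after dexamethasone. The call for Tsc22d3 was made in all 14 alternative analyses, with log2 fold changes of 1.31 to 1.498. Of 4383 stretches of 50 bases in its exons, 20 also occur in the processed pseudogene Gm8812, which had 0 counts in every library. No gene in the table overlaps Tsc22d3.

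Tsc22d1 was the most abundant member, at 2007 and 1835 CPM in dexamethasone replicates 1 and 2 against 1239 and 1447 CPM in PBS replicates 1 and 2. Both dexamethasone libraries were above both PBS libraries, the nearest pair by 1.27-fold. The means were 1921 ± 121 CPM (SD, n = 2) and 1343 ± 147 CPM (SD, n = 2). The log2 fold change of Tsc22d1 was 0.52 ± 0.15 (SE), with a 95% interval of 0.17 to 0.87, and edgeR's adjusted p was 0.0800, so the gene did not pass. In absolute terms the difference of 578 CPM was the 4th largest increase in mean CPM in the table, larger than the 138 CPM of Tsc22d3. Per length its level in PBS was at percentile 98.2 of all genes tested.

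The Tsc22d1 result lay near the threshold and moved across it. It passed with library totals in place of TMM factors (log2 fold change 0.61, adjusted p 0.0386), a scaling that also moved the median of all genes to 0.10. DESeq2 (0.50, adjusted p 0.0244) and edgeR without a filter on low counts (0.52, adjusted p 0.00604) called it too. It did not pass by limma-voom (adjusted p 0.0775). Fold changes in these libraries ran with gene length, and with a straight-line trend on log2 length removed from each library the log2 fold change of Tsc22d1 was 0.29, with an edgeR adjusted p of 0.321.

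**Figure D2:**
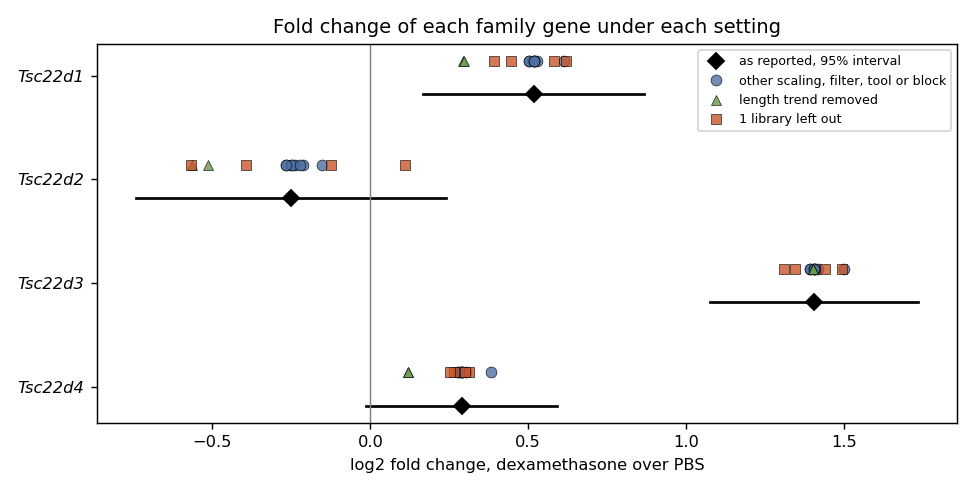
Log2 fold change (dexamethasone over PBS, horizontal axis) of each family gene as reported, with its 95% interval, and under the 14 alternatives. Tsc22d3 stays between 1.31 and 1.498, Tsc22d1 between 0.29 and 0.62, Tsc22d4 between 0.12 and 0.38, and Tsc22d2 runs from −0.57 to 0.11.

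Tsc22d4 (ENSMUSG00000029723; plus strand of chromosome 5, 137745730 to 137768450, GRCm38) was at 81.0 and 84.0 CPM in dexamethasone replicates 1 and 2. It was at 68.8 and 66.2 CPM in PBS replicates 1 and 2. The replicates of each group lay within 1.04-fold of each other and the groups did not overlap, the nearest libraries differing by 1.18-fold. The log2 fold change was 0.29 ± 0.13 (SE), with a 95% interval of −0.01 to 0.59 and an edgeR adjusted p of 0.198. Tsc22d4 did not pass in any of the 14 alternatives, and with the length trend removed its log2 fold change was 0.12. In its exons 20 of 7498 stretches of 50 bases also occur in other genes, 221 of them.

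Tsc22d2 (ENSMUSG00000027806; plus strand of chromosome 3, 58414715 to 58466783, GRCm38) was at 47.3 and 57.1 CPM in dexamethasone replicates 1 and 2. In PBS replicates 1 and 2 it was at 48.0 and 76.4 CPM. The groups overlapped, and the PBS libraries differed from each other by 1.59-fold, with means of 52.2 ± 6.98 CPM after dexamethasone and 62.2 ± 20.1 CPM after PBS (SD, n = 2). The log2 fold change of Tsc22d2 was −0.25 ± 0.22 (SE), with a 95% interval of −0.74 to 0.24 and an edgeR adjusted p of 0.480. The value rested on which PBS library was kept. It was −0.57 without PBS replicate 1, where edgeR gave an adjusted p of 0.0248, and 0.11 without PBS replicate 2, with an adjusted p of 0.810. With the length trend removed it was −0.56, at an adjusted p of 0.192.

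**Figure D3:**
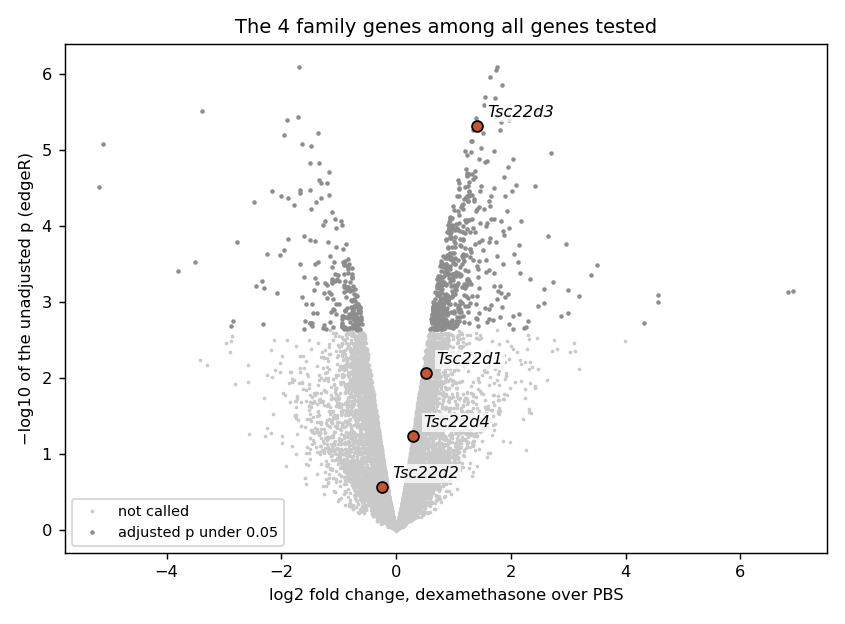
Log2 fold change (dexamethasone over PBS) against −log10 of edgeR's unadjusted p for all 16027 genes tested, with called genes in dark grey and the 4 family genes in orange. Tsc22d3, at a log2 fold change of 1.41, lies among the called genes, and Tsc22d1, Tsc22d4 and Tsc22d2 lie below them.

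The members kept the same order per length in every library, with Tsc22d1 highest, then Tsc22d3, Tsc22d4 and Tsc22d2. Tsc22d1 was at 223 and 204 CPM per kilobase in dexamethasone replicates 1 and 2 and at 138 and 161 in PBS replicates 1 and 2. Tsc22d3 was at 54.1 and 47.8 against 19.9 and 18.5 CPM per kilobase. Tsc22d4 was at 10.8 and 11.2 against 9.16 and 8.82, and Tsc22d2 at 4.20 and 5.08 against 4.27 and 6.80 CPM per kilobase. Neighbours in this order did not overlap in either group. The closest were Tsc22d4 and Tsc22d2 in PBS replicate 2, at 8.82 and 6.80, nearer to each other than the PBS libraries of Tsc22d2 were (4.27 and 6.80). The order of these genes also depended on the division by length. In CPM Tsc22d2 (76.4) was above Tsc22d4 (66.2) in PBS replicate 2. The 4 levels added up to 292 and 268 CPM per kilobase after dexamethasone and to 171 and 195 after PBS.

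Tsc22d3 made up 18.5% and 17.8% of the summed per-length level of the family after dexamethasone, in replicates 1 and 2, and 11.6% and 9.51% after PBS. Both dexamethasone libraries were above both PBS libraries. The difference in share was 7.60 percentage points (18.2 ± 0.496% against 10.6 ± 1.505%, SD, n = 2), with p = 0.333 by a two-sided exact permutation test, the smallest p that 2 libraries against 2 allow. The share of Tsc22d1 was 76.3% and 76.1% after dexamethasone against 80.5% and 82.5% after PBS. That of Tsc22d4 was 3.69% and 4.17% against 5.35% and 4.52%. Tsc22d2 made up 1.44% and 1.895% against 2.495% and 3.49%. The shares of Tsc22d1, Tsc22d4 and Tsc22d2 were each lower in both dexamethasone libraries than in both PBS libraries. Relative to Tsc22d1, Tsc22d3 was 1.85-fold higher after dexamethasone than after PBS (difference in log2 ratio 0.88). Relative to Tsc22d2 it was 3.08-fold higher (1.63), and relative to Tsc22d4 2.17-fold higher (1.11). Each of the 3 ratios was higher in both dexamethasone libraries than in both PBS libraries, at the same smallest exact permutation p of 0.333, unadjusted over the 4 measures and 0.333 after Benjamini-Hochberg adjustment.

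**Figure D4:**
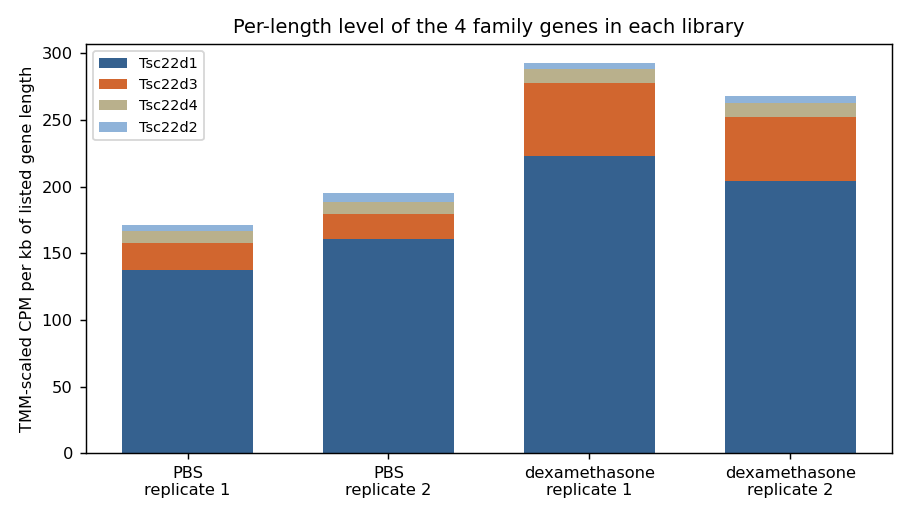
TMM-scaled CPM per kilobase of listed gene length of the 4 family genes, stacked, in each of the 4 libraries. Tsc22d1 forms most of each bar, and the Tsc22d3 band is 47.8 to 54.1 high in dexamethasone libraries and 18.5 to 19.9 in PBS libraries.

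The libraries held 21904510 to 26948588 counts assigned to genes, and counts of replicates of a group differed by a chi-square of 17.3 and 23.0 per degree of freedom, so none was a repeat of another. In a whole gland, fewer cells of a type and less RNA per cell cannot be told apart. Markers of the adrenal cortex summed to 33796 to 37473 CPM after dexamethasone and to 49292 to 50423 CPM after PBS. Of the 7 genes Nr5a1 alone was called lower, beside 1.37% of all genes, while DESeq2 called 3 lower and limma-voom 1. Over all genes tested DESeq2 called 870 lower and limma-voom 215. At an unadjusted p under 0.05 by edgeR 5 were lower, beside 13.1% of all genes. Log2 fold changes of the 7 ran from −1.35 to −0.14, with a median of −0.56. Chromaffin markers summed to 8483 to 11119 and 7662 to 11729 CPM, with 0 of 6 genes called, and endothelial markers to 744 to 790 and 701 to 751 CPM, with 0 of 5 called. Macrophage markers were at 148 to 150 CPM after dexamethasone and 104 to 105 CPM after PBS. Of the 5 genes Mrc1 and Cd163 were called higher, beside 3.26% of all genes, and Mrc1 alone with the length trend removed or by limma-voom. Adgre1 (log2 fold change 0.36), Csf1r (0.22) and Cd68 (−0.09) were not called. Red cell markers were at 137 to 146 and 226 to 394 CPM, with 3 of 5 called lower, all of them globin genes, beside 1.37% of all genes. That count was 0 with the length trend removed, 4 by DESeq2, 2 by limma-voom, 5 without PBS replicate 1 and 2 without PBS replicate 2. Of 7 lymphocyte markers 6 were too low to test, at 4 to 28 counts over all libraries, and of 4 kidney markers Umod, Slc34a1 and Kap had 0 counts and Aqp2 had 22. Fat markers (88.9 to 138 against 74.3 to 140 CPM) and liver markers (3.27 to 26.8 against 8.36 to 75.5 CPM) overlapped between groups, with 0 of 5 and 0 of 4 called by edgeR. In these 4 lists with no call DESeq2 and limma-voom called 0 as well, and at an unadjusted p under 0.05 there was 1 endothelial and 1 fat gene. Calls appeared in them under other settings. Without a filter on low counts they were Pnmt, Lep and Ucp1, higher, and Alb and Ttr, lower. With the replicate number as a block Alb was called lower. Calls also appeared when a library was left out. Without dexamethasone replicate 2 these were 1 chromaffin and 1 fat gene, and without PBS replicate 2 they were 2 chromaffin genes and 1 fat gene, all higher, and 2 liver genes, lower. Without PBS replicate 1 there was 1 endothelial gene, higher, and without dexamethasone replicate 1 there were 3 liver genes, lower. The part of these differences in the Tsc22d3 result was not tested. Tsc22d3 was called without each library in turn, at log2 fold changes of 1.31 to 1.49.

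Genes that act around the family were read from 7 lists, 86 different tested genes in all, of which 7 were called higher and 2 lower, beside 3.26% and 1.37% of all genes tested. For the counts at an unadjusted p under 0.05 given below, the share of all genes tested was 14.3% higher and 13.1% lower. Over all genes tested DESeq2 called 914 higher and 870 lower, and limma-voom 507 and 215. Calls over all genes also changed with each library left out, and were most numerous without PBS replicate 1. Counts from these settings, those of markers included, cannot be read beside the shares above. All 7 lists were drawn up with earlier results of these libraries known. Transcription factors known to act on the Gilz gene included Foxo3, a FOXO factor, as the sole gene called among 9. Foxo3 was at 160 and 218 CPM in the dexamethasone libraries against 121 and 92.2 CPM in the PBS libraries, a log2 fold change of 0.82 ± 0.20 (SE) with an edgeR adjusted p of 0.0497. It failed in 6 of the 14 alternatives, among them length-trend removal and leaving out dexamethasone replicate 2 or PBS replicate 2, with log2 fold changes down to 0.58. Nr3c1, the glucocorticoid receptor gene, was at 41.5 and 43.5 CPM in the dexamethasone libraries against 44.8 and 31.3 CPM in the PBS libraries, with overlapping groups and a log2 fold change of 0.16. The mineralocorticoid receptor gene Nr3c2 (−0.11), Foxo1 (0.26) and Creb1 (0.39) did not pass either. By DESeq2 and by limma-voom 1 gene of the list was called and 0 lower, and at an unadjusted p under 0.05 there were 2 higher and 0 lower. Without PBS replicate 1 edgeR called 2 higher. The median of the list was 0.18, beside 0.01 over all genes tested.

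The list drawn up for anti-inflammatory genes induced by glucocorticoids, the class to which GILZ belongs, held 13 tested genes. Of these 5 were called higher and 0 lower, beside 3.26% and 1.37% of all genes, and 8 were not called. Log2 fold changes in the list ran from −0.92 to 2.07. It also holds genes of other kinds, among them Fkbp5 and Per1, and Cd163 is also among the macrophage markers above. The count is therefore not restricted to anti-inflammatory genes. Fkbp5, the gene of a co-chaperone of the glucocorticoid receptor, was at 426 and 464 CPM in the dexamethasone libraries against 155 and 222 CPM in the PBS libraries (log2 fold change 1.24 ± 0.19, SE). Klf9, a Krüppel-like factor gene, was at 155 and 185 against 88.8 and 83.3 CPM (0.98 ± 0.15). The edgeR adjusted p was 0.0117 for Fkbp5 and 0.0115 for Klf9, and both were called in all 14 alternatives. Dusp1, which encodes a phosphatase of MAP kinases, rose by a log2 of 0.72 (adjusted p 0.0494), Nfkbia, the gene of an NF-κB inhibitor, by 0.68 (0.0332) and Cd163, a macrophage scavenger receptor gene, by 0.91 (0.0489). These 3 were less stable, with 10, 10 and 6 of the 14 alternatives calling them, and none of the 3 passed without dexamethasone replicate 2 or without PBS replicate 2. The clock gene Per1 (0.55, adjusted p 0.165) and the annexin gene Anxa1 (−0.32, adjusted p 0.352) did not pass, although both are glucocorticoid targets in other tissues. The value of Per1 rested on the PBS libraries, with a log2 fold change of 0.94 without PBS replicate 1, where it passed (edgeR adjusted p 0.000783), and 0.22 without PBS replicate 2. Per1 was at 0.36 without dexamethasone replicate 2, and it also passed without a filter on low counts (adjusted p 0.0155). At an unadjusted p under 0.05 there were 7 higher and 1 lower in the list, whose median was 0.55. DESeq2 called 6 higher and 1 lower and limma-voom 4 and 0. The edgeR count of genes called higher fell without dexamethasone replicate 1, dexamethasone replicate 2 or PBS replicate 2 and rose without PBS replicate 1.

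**Figure D5:**
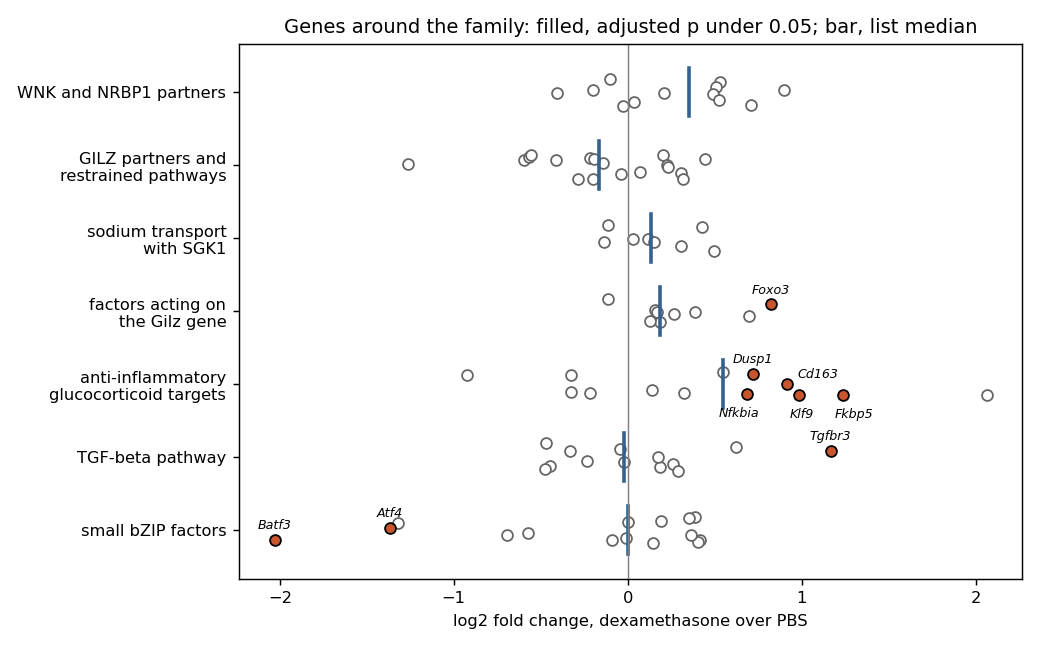
Log2 fold change (dexamethasone over PBS, horizontal axis) of each tested gene in the 7 lists around the family. Filled points have an edgeR adjusted p under 0.05 and are named, and the vertical bars are list medians, which lie between −0.17 for the partners of GILZ and 0.55 for anti-inflammatory targets.

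The proteins that GILZ binds or restrains were not called in either direction at the RNA level, in 0 of 18 tested genes by edgeR. At an unadjusted p under 0.05 there were 0 higher and 5 lower, DESeq2 called 2 lower and limma-voom 0, and the median was −0.17. Without PBS replicate 1 edgeR called 4 lower, and without dexamethasone replicate 2 or PBS replicate 2 it called 1. Rela, which encodes the p65 subunit of NF-κB, was at 122 and 132 CPM in the dexamethasone libraries against 148 and 191 CPM in the PBS libraries, without overlap (log2 fold change −0.41, edgeR adjusted p 0.143). In kidney epithelium GILZ acts with the kinase SGK1 on sodium channels. Of 8 tested genes of that regulation 0 were called, with 1 higher at an unadjusted p under 0.05 and 0 calls by DESeq2 and limma-voom. Without PBS replicate 2, and without a filter on low counts, edgeR called 1 higher. Sgk1 was at 179 and 164 CPM in the dexamethasone libraries against 157 and 159 CPM in the PBS libraries (0.12), and Nedd4l, the gene of a ubiquitin ligase for the channel, at 12.1 and 10.6 against 8.21 and 8.70 CPM (0.43, adjusted p 0.182).

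The WNK kinase and NRBP1 partners of the long TSC22D proteins had 0 of 12 genes called by edgeR, with 5 higher and 1 lower at an unadjusted p under 0.05, 1 call by DESeq2 (Wnk1) and 0 by limma-voom. Without PBS replicate 1 edgeR called 2 higher and 1 lower, and without dexamethasone replicate 1 or PBS replicate 2 it called 1 higher. Wnk1 was at 365 and 423 CPM in the dexamethasone libraries against 313 and 231 CPM in the PBS libraries, a log2 fold change of 0.53 with an adjusted p of 0.104. Nrbp1, the gene of a pseudokinase that binds the family, was at 70.2 and 67.4 against 86.1 and 96.3 CPM (−0.41, adjusted p 0.106). Its paralogue Nrbp2 (−0.02) and the WNK-activated kinase genes Oxsr1 (0.04) and Stk39 (−0.20) had overlapping groups. The median of the list was 0.35, and 0.02 with the length trend removed.

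In the TGF-beta pathway, after which Tsc22d1 was named, 1 of 13 genes was called. Tgfbr3, the gene of the co-receptor betaglycan, was at 508 and 522 CPM in the dexamethasone libraries against 256 and 203 CPM in the PBS libraries. Its log2 fold change was 1.17 ± 0.16 (SE), with an edgeR adjusted p of 0.00863, and it was called in all 14 alternatives. The ligand gene Tgfb1 (−0.33), the receptor gene Tgfbr1 (0.26), the signal transducer Smad4 (0.29), the inhibitory Smad7 (0.17) and Tpt1 (−0.47) did not pass, and the list's median was −0.02. Without PBS replicate 1 edgeR called 2 higher and 1 lower. Among 15 genes of small leucine zipper factors, taken for comparison with the zipper proteins of the family, 2 were called lower and 0 higher. Atf4, an activator of the amino acid response, was at 108 and 92.5 CPM in the dexamethasone libraries against 190 and 329 CPM in the PBS libraries (log2 fold change −1.37 ± 0.24, SE, edgeR adjusted p 0.0197). Batf3, a factor of dendritic cell development, was at 2.49 and 1.27 against 6.44 and 8.99 CPM (−2.03 ± 0.35, adjusted p 0.0179). Both were called lower in all 14 alternatives, and the list's median was 0.00. Without PBS replicate 1 edgeR called 5 lower and 2 higher. DESeq2 called 3 lower and limma-voom 2, neither called any higher, and 2 were higher at an unadjusted p under 0.05.

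The genes with the most similar pattern were sought among 10960 protein-coding genes of at least 5 CPM on average. Likeness was the root mean square distance between log2 CPM values over the 4 libraries, each gene centred on its own mean. Nearest to Tsc22d3 were Cadps at 0.0348, Soga3 at 0.0380, Celsr3 at 0.0795, Hecw2 at 0.0804 and Tlr7 at 0.0827. Cadps, which encodes an activator of vesicle exocytosis, was at 23.2 and 21.6 CPM in the dexamethasone libraries against 9.04 and 8.27 CPM in the PBS libraries. Soga3 was at 16.3 and 14.2 against 5.54 and 5.34 CPM. Nearest to Tsc22d1 were Dnm3, Igf2bp2, Kctd7, Zfp612 and Pcdhb17, at distances of 0.0191 to 0.0319. Nearest to Tsc22d4 were Dnajc3, Zfp281, Atxn1l, Zdhhc2 and Slc44a1, at 0.00758 to 0.0110, and nearest to Tsc22d2 were Eml1, Unc45a, Gpm6a, Larp6 and Hook2, at 0.0388 to 0.05004. With 4 libraries such likeness is a description of these libraries alone.

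The nearest tested genes on either side of each member were not called, 0 of 8 by edgeR, with 4 of the 8 at an unadjusted p under 0.05, beside 27.5% of all genes tested. DESeq2 called 1, Nyap1, and limma-voom 0, while without PBS replicate 1 edgeR called Mid2 and Nyap1 higher and Nufip1 lower. Next to Tsc22d3, Prps1 was at 25.9 and 22.5 CPM in the dexamethasone libraries against 23.8 and 22.7 CPM in the PBS libraries, with overlapping groups (log2 fold change 0.06), at a distance of 63387 bp. Mid2, 63939 bp away on the other side, was at 60.6 and 65.9 against 51.7 and 33.8 CPM (0.56, adjusted p 0.114). Next to Tsc22d1, Nufip1 (−0.50) and Serp2 (−0.31) had log2 fold changes below 0, opposite in sign to that of Tsc22d1. Next to Tsc22d2 were Pfn2 (0.01) and Serp1 (−0.09). Next to Tsc22d4, Nyap1, 4122 bp away on the opposite strand, was at 10.3 and 8.98 against 5.91 and 4.90 CPM (0.83, edgeR adjusted p 0.0597), and Ppp1r35 was at −0.48.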

How the data were processed

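RNA of pooled adrenal glands was sequenced in paired ends from NEBNext Ultra libraries, per the labels' protocols. The authors deposited raw read counts, in whole numbers, for each gene. The submitters' processing notes name the tools HTSeq 0.6.1, STAR 2.5 and CASAVA 1.8 and the genome build mm10 (GRCm38). How reads were counted, strand included, is not stated in the labels. Column names of the table were read with S for saline, D for dexamethasone and the number for the replicate.

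Genes were filtered with filterByExpr (16027 of 27040 with a count) and scaled with TMM factors of 0.950 to 1.04. They were tested with edgeR 4.0.16 in R 4.3.3 (glmQLFit and glmQLFTest, two-sided, group as the sole term, 2 residual degrees of freedom, biological coefficient of variation 0.149), with Benjamini-Hochberg adjustment over all genes. Standard errors are the log2 fold change over the square root of F, and intervals use them with the fit's total degrees of freedom. Log2 CPM has a prior count of 2. The test was also run on simulated counts of independent genes with a constant dispersion, with a length trend in a separate run only. These settings are simpler than those of the libraries here, and no result above rests on them. Alternatives used DESeq2 1.42.0, limma 3.58.1 (voom), other scalings and filters, removal of a length trend, a replicate block, and leaving out each library. The members and lists were chosen with earlier results of these data known. Named genes are the 4 members, every called gene of the 7 pathway lists and fixed members of these, the 5 nearest genes in pattern and the nearest tested neighbours. Names outside this rule are marker genes, those of shared sequence, and Maff and Nfil3, which were chosen after their values were seen. Promoter windows were matched by symbol for 2 of the 4 members. A result of the fixed list members is not reported here.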

Additional observations from a re-analysis of the deposited data

How the results depend on the processing

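Tsc22d3 was called higher in all 14 alternatives (log2 fold change 1.31 to 1.498, edgeR, DESeq2 or limma adjusted p at most 0.0115) and Tsc22d4 in none (0.12 to 0.38). Tsc22d1 passed with library totals (0.61), without a filter on low counts (0.52) and by DESeq2 (0.50), and without each library it ran from 0.39 to 0.62. Tsc22d2 ran from −0.57 without PBS replicate 1, where it passed, to 0.11 without PBS replicate 2. Over all genes tested 523 were higher and 219 lower. The number higher was 893 with library totals, 1384 without a filter, 914 by DESeq2 and 310 with the length trend removed, and 337 to 1595 with a library left out. The number lower was 1329 without a filter, 870 by DESeq2 and 134 with the trend removed, and 147 to 1747 with a library left out. PBS replicate 1 gave the most calls when left out, and dexamethasone replicate 2 the fewest higher; without dexamethasone replicate 1 the number lower was 783, and without PBS replicate 2 it was 361. Same-numbered libraries did not deviate together (r = −0.03 across 16027 genes). Because the labels state no pairing or block, the main test did not use the replicate number. With it as a block 244 genes were higher and 89 lower, or 267 and 125 with the length trend removed as well, and no family gene changed its call; of the anti-inflammatory list 2 genes were then higher. The difference in the Tsc22d3 share was 4.30 percentage points on counts not divided by length, 9.42 with the length trend removed and 6.53 to 8.66 with a library left out. With the trend removed the difference in log2 ratio was 1.10 to Tsc22d1 and 1.28 to Tsc22d4. With a library left out it ran from 0.72 to 1.05 to Tsc22d1, 1.00 to 1.23 to Tsc22d4 and 1.24 to 2.01 to Tsc22d2. Of 196 counts of called list genes under alternatives, 38 moved by over 1.5 times. Where not stated above, the cause of a change was not tested. The table gives counts per gene, so forms of a gene could not be followed. With pools of glands, 2 libraries a group and 1 time point, differences between single mice and later times were not measured. Counting error is small for all 4 genes (at most 2.81% per library), so the spread between pools sets most of the precision. That spread is estimated by edgeR in part from the other genes tested, so it is not each gene's own alone.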

Other observations

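Among the small leucine zipper factors, a pair of genes stood apart in 1 PBS library, and they were chosen after their values were seen. Maff, the gene of a small Maf protein that responds to stress, reached 40.6 CPM in PBS replicate 2, against 5.57 CPM in its PBS partner and 9.97 and 8.40 CPM in dexamethasone replicates 1 and 2. Nfil3, which encodes a repressor of clock-controlled genes, reached 38.0 CPM there, against 9.83 CPM in the other PBS library and 15.9 and 13.5 CPM in the dexamethasone libraries. Neither gene was called (edgeR adjusted p 0.233 and 0.375). In the same library Tsc22d2, at 76.4 CPM, was also at its highest.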
